A study of Mus musculus with 9 samples.

Results

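The genes described here are Maged1, Maged2, Armcx1, Armcx2, Armcx3 and Armcx6, members of the Maged and Armcx families that were picked because earlier results of these arrays showed such genes higher in cells given inhibitors of histone deacetylases (HDACs). They were chosen by their log2 differences of TSA and butyrate from untreated cells, and were found here by gene symbol among the probe sets that carry exactly 1 symbol. Of the 6 genes, 5 were measured, by 8 of the 20380 probe sets with 1 symbol, against 12393 measured genes in all. Armcx6 was not analysed here. The arrays came from splenic dendritic cells (DC), antigen-presenting cells of the immune system, taken from mice of 6 to 8 weeks that carried B16 melanoma tumours expressing Flt3L, the cytokine that expands DC, and purified on CD11c beads. The 3 groups, each of 3 arrays, were DC treated with butyrate, DC treated with TSA (trichostatin A), and untreated DC. All 3 groups share the tumour and the Flt3L expansion, and neither the mouse strain and sex nor the doses and times of treatment were given in the sources used here. Nothing in the labels says that the replicates came from separate mice or cultures, so the p-values measure only the spread between these samples, which may be technical.

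MAGE proteins share a homology domain through which they bind RING-type ubiquitin ligases. Type I MAGE genes, such as the Magea genes, are largely restricted to testis and tumours, whereas type II genes, to which the Maged genes belong, are expressed in many tissues. The Armcx genes encode proteins with armadillo-like repeats, several of which sit in the outer mitochondrial membrane and take part in the transport of mitochondria in neurons. Both families are known mainly from the nervous system, and all 6 genes lie on the X chromosome. TSA, a hydroxamic acid, and butyrate, a fatty acid that intestinal microbes produce, block HDACs, which take acetyl groups off histones and other proteins.

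The values are log2 expression levels made with RMA, which corrects background, equalizes the arrays and summarizes the probes of a set. Array medians lay between 6.698 and 6.746, and the correlation between arrays of the same group, taken across genes that are not independent replicates, was 0.9971 to 0.9985. A probe set is called dim here where it lay below the 25th percentile of all probe sets on all 9 arrays, and the fold change of a dim gene understates the change in RNA. The cells carried DC transcripts: none of 11 measured DC markers was dim, although the CD11c gene Itgax was lower with both treatments, at 8.50 in butyrate DC, 8.25 in TSA DC and 9.24 in untreated DC. No measured marker of plasmacytoid DC, macrophages and monocytes, neutrophils, T cells, B cells or erythroid cells was dim either, so this does not set DC apart. In untreated samples the neutrophil marker S100a8 read 13.83 and the B cell marker Ighm 12.87, beside 14.39 for the DC marker Cd74. Less RNA per cell and fewer cells of a type cannot be told apart in such bulk samples.

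Maged1 and Armcx2 had the largest differences from untreated cells, Armcx1 and Armcx3 had smaller ones, and Maged2 had nearly none. Since the genes were chosen for their rise over untreated cells, these differences are given as a description, with no test. The median difference over the 5 measured genes was 0.33 on the log2 scale with butyrate and 0.72 with TSA, beside medians of 0.085 and 0.032 over all 12393 genes. Butyrate and TSA were set against the same untreated arrays.

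Maged1 encodes an adaptor that binds the neurotrophin receptor p75 and takes part in apoptosis and in ubiquitin ligation. Its probe set, 1450062_a_at, read 7.48, 7.58 and 7.60 in the butyrate samples, 8.14, 8.11 and 8.13 in the TSA samples, and 5.53, 5.72 and 5.58 in the untreated samples. The groups did not overlap, and the TSA samples lay closest together. The level was 3.85-fold higher with butyrate and 5.74-fold higher with TSA than in untreated DC, or 1.94 ± 0.060 and 2.52 ± 0.060 on the log2 scale (limma's standard error, n = 3 arrays per group). Among the 12393 genes, 22 had a larger rise with butyrate and 3 a larger rise with TSA.

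Armcx2, whose product carries armadillo-like repeats, was measured by 3 probe sets. The brightest, 1456739_x_at, read 9.29, 9.38 and 9.31 in the butyrate samples, 9.93, 9.97 and 10.06 in the TSA samples, and 7.64, 7.40 and 7.49 in the untreated samples. The groups were again separate, with a level 3.53-fold higher with butyrate and 5.57-fold higher with TSA than in untreated DC. A further probe set, 1415780_a_at, read 8.65, 8.65 and 8.69 in the butyrate samples, 9.30, 9.29 and 9.29 in the TSA samples, and 6.95, 7.11 and 7.18 in the untreated samples, so it was higher by 1.58 with butyrate and by 2.21 with TSA on the log2 scale. The remaining probe set, 1437849_x_at, differed by less: it read 8.45, 8.44 and 8.45 in the butyrate samples, 8.65, 8.73 and 8.75 in the TSA samples, and 7.80, 7.92 and 7.99 in the untreated samples, 1.46-fold and 1.75-fold higher with the treatments. The 3 probe sets agreed in direction and in the order of the groups but not in size. Affymetrix marks with _x_at the probe sets that hold probes matching other sequences as well, and whether this bears on the difference in size was not tested.

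Armcx3 encodes an outer mitochondrial membrane protein that binds the Miro and Trak proteins of the mitochondrial transport machinery in neurons. Its brighter probe set, 1424373_at, read 8.81, 8.77 and 8.84 in the butyrate samples, 9.19, 9.19 and 9.18 in the TSA samples, and 8.53, 8.57 and 8.42 in the untreated samples. The differences from untreated DC were 0.30 ± 0.052 with butyrate and 0.68 ± 0.052 with TSA on the log2 scale. The second probe set, 1460359_at, read 7.94, 8.10 and 8.21 in the butyrate samples, 8.41, 8.33 and 8.31 in the TSA samples, and 7.60, 7.34 and 7.52 in the untreated samples. Neither probe set had groups that overlapped, and the second differed by 0.60 with butyrate and 0.87 with TSA.

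Armcx1 encodes a mitochondrial protein known to promote mitochondrial transport and axon regrowth in mouse neurons. Its probe set, 1425914_a_at, was weak in these cells, below the 25th percentile on 8 of 9 arrays. It read 4.48, 4.52 and 4.66 in the butyrate samples, 4.76, 4.99 and 5.10 in the TSA samples, and 4.10, 4.21 and 4.36 in the untreated samples. The groups did not overlap, although the highest untreated and the lowest butyrate sample were near each other. The differences were 0.33 ± 0.096 with butyrate and 0.72 ± 0.096 with TSA.

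Maged2, which in the kidney promotes the expression of salt transporters, did not follow Maged1. Its probe set, 1426306_a_at, was dim on all 9 arrays and read 4.32, 4.46 and 4.24 in the butyrate samples, 4.64, 4.35 and 4.24 in the TSA samples, and 4.32, 4.30 and 4.29 in the untreated samples. The groups overlapped, and the differences of 0.04 ± 0.096 with butyrate and 0.11 ± 0.096 with TSA were close to their errors. The TSA difference rested on 1 array and was −0.004 without TSA replicate 1, and the butyrate difference was −0.022 without butyrate replicate 2. These arrays therefore do not show Maged2 to be induced, and at such a low level they say little about its RNA.

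Of the 8 probe sets, 7 stood in the order TSA over butyrate over untreated with no overlap between any pair of groups, an order held by 5.34% of all probe sets. The choice of the genes fixed part of this order. Groups did not overlap, with higher values than untreated, in 34.1% of all probe sets with butyrate and in 29.2% with TSA.

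**Figure D1:**
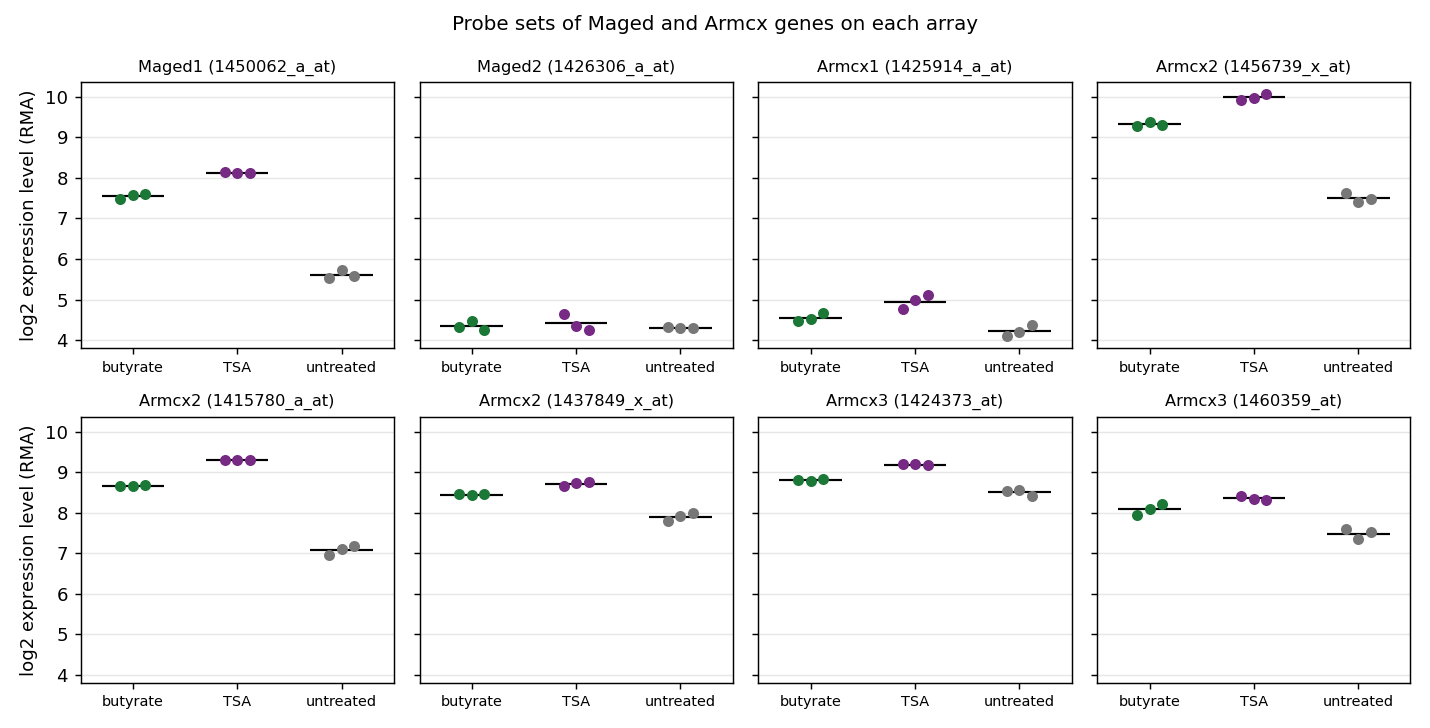
Log2 expression level (RMA) of the 8 probe sets of Maged1, Maged2, Armcx1, Armcx2 and Armcx3 on each array, in butyrate, TSA and untreated samples; points are arrays and lines group means (n = 3 each). In every panel but Maged2 the TSA samples sit above the butyrate samples and these above the untreated samples.

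The comparison of butyrate with TSA was not the one that chose the genes. It still shares its TSA arrays with that choice, because Maged1 and Armcx2 had been picked among the largest rises with TSA, and since the doses and times are not known it is not a comparison at matched strength. In limma's fit over all 12393 genes, 4 of the 5 measured genes were lower with butyrate than with TSA at an adjusted p under 0.05, where 20.0% of all genes were lower and 15.9% higher. Armcx2 was lower by the most, with a difference of −0.66 ± 0.067 (95% interval −0.81 to −0.51, limma adjusted p = 7.58e-05). Maged1 differed by −0.58 ± 0.060 (−0.71 to −0.44, limma adjusted p = 8.7e-05), Armcx3 by −0.38 ± 0.052 (−0.50 to −0.26, limma adjusted p = 0.000419) and Armcx1 by −0.40 ± 0.096 (−0.61 to −0.18, limma adjusted p = 0.0102). In folds, Armcx2 and Maged1 were 1.58-fold and 1.49-fold lower with butyrate. All 3 butyrate samples lay below all 3 TSA samples for each of these 4 genes, as they did for 25.8% of all genes. Maged2 was not called (−0.07 ± 0.096, limma adjusted p = 0.591), and its interval ran from −0.29 to 0.14. Its probe set was dim on every array, where a fold change understates the change in RNA. The interval therefore cannot exclude an RNA difference of the size seen for Armcx3. It also depends on the scale of the arrays. With hybridization spike-ins made equal, as described below, the Maged2 difference was −0.473 (limma adjusted p = 0.000168). With poly-A spike-ins made equal it was −0.412 (limma adjusted p = 0.107).

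The further probe sets were tested in a fit over all 20380 probe sets, of which 17.7% were lower with butyrate. Of Armcx2, 1415780_a_at differed by −0.63 ± 0.061 (limma adjusted p = 8.75e-05) and 1437849_x_at by −0.26 ± 0.059 (limma adjusted p = 0.00862). The second probe set of Armcx3 was near the threshold, at −0.27 ± 0.085 (limma adjusted p = 0.0368). Its call was lost when any 1 TSA array or butyrate replicate 1 or 2 was left out, with adjusted p up to 0.124, with the replicate number as a block (adjusted p = 0.0554) and after a further quantile normalization (adjusted p = 0.0943).

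**Figure D2:**
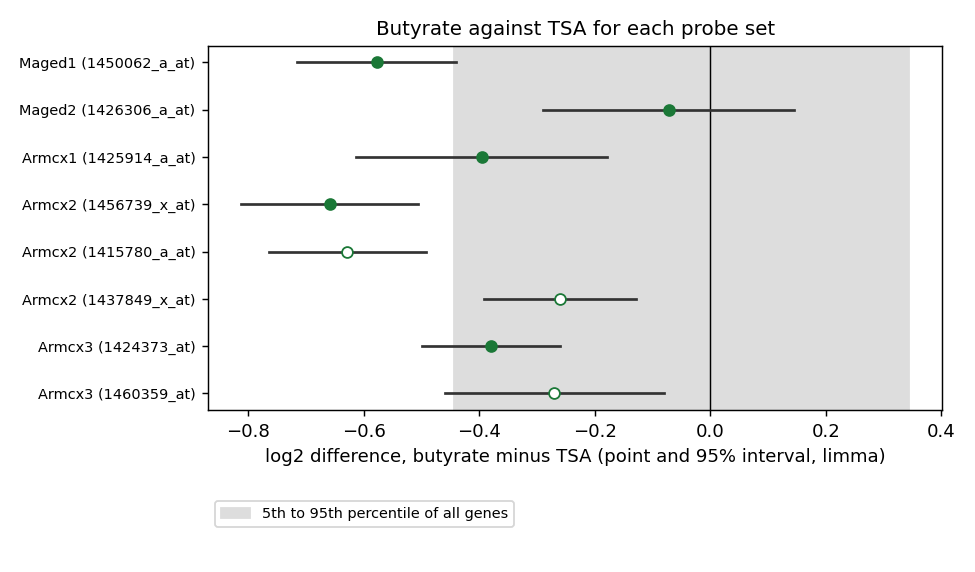
Log2 difference between butyrate and TSA samples for the 8 probe sets, as points with limma's 95% interval (filled for the probe set that represents its gene); the grey band spans the 5th to 95th percentile of all genes, −0.44 to 0.34. The intervals of 7 probe sets lie below 0, and that of Maged2 includes 0.

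The butyrate differences from untreated cells depend on how the arrays are set to a common scale. The hybridization spike-ins, bacterial transcripts added to every sample, were brighter on the butyrate arrays, at 10.78 ± 0.063, than on the TSA arrays, at 10.38 ± 0.030, and the untreated arrays, at 10.37 ± 0.075 (SD, n = 3 each). On a scale that makes these spike-ins equal, every butyrate difference was lower by 0.415, the median over all genes moved to −0.33, and the genes called with butyrate became 932 higher and 8417 lower, against 4166 higher and 3075 lower on the deposited scale. Maged1 and Armcx2 stayed higher with butyrate, by 1.53 and 1.40, and by 1.59 and 1.47 where the poly-A spike-ins were made equal. Armcx3 and Armcx1 turned to −0.12 and −0.09 on the hybridization scale and to −0.05 and −0.02 on the poly-A scale. Both lay above the median of all genes on the deposited scale. The spike-in scales move all genes by the same amount, so they cannot change that position. All these values are of the brightest probe set of each gene. On the deposited scale the second Armcx3 probe set, 1460359_at, was higher with butyrate by 0.596 and 1437849_x_at of Armcx2 by 0.544. Both values exceed the shifts of 0.415 (hybridization) and 0.35 (poly-A), so on these scales they stay above 0 but become small. The TSA differences moved by 0.014 at most on these scales. TSA calls on the poly-A scale still fell from 5866 to 2497 genes, so a TSA call lost there does not show a markedly smaller difference. Poly-A spike-ins varied more within groups, with SDs of 0.104 (butyrate), 0.149 (TSA) and 0.307 (untreated). The 4 calls of butyrate against TSA were kept on both scales. Both scales lowered butyrate against TSA for every gene, by 0.401 (hybridization) and 0.34 (poly-A), so kept calls are no separate support. Of all 12393 genes, 10047 were then called lower on the hybridization scale and 2871 on the poly-A scale.

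**Figure D3:**
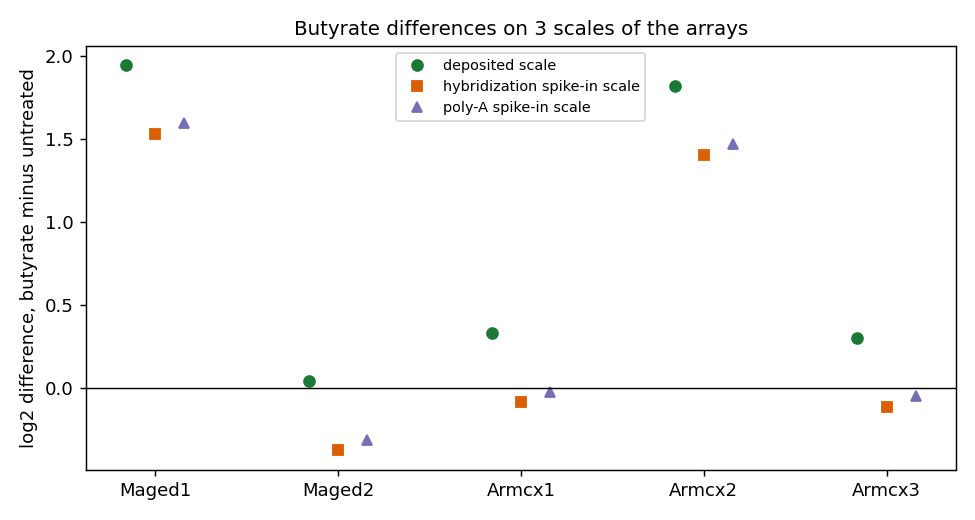
Log2 difference between butyrate and untreated samples for the brightest probe set of each of the 5 measured genes, on the deposited scale and after setting the arrays to equal hybridization or poly-A spike-ins. Maged1 and Armcx2 lie at 1.40 or above on all 3 scales, while Armcx1 and Armcx3 cross 0.

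Relatives of both families were read from lists drawn up by family and function. Among ARMCX and GASP relatives, which share the armadillo-like domain, 4 of 6 listed genes were measured and 2 rose with each treatment, with none falling (background of rises 33.6% of genes with butyrate and 26.3% with TSA). Gprasp1, which sorts G protein-coupled receptors to lysosomes, rose by 0.63 ± 0.066 with butyrate and 1.13 ± 0.066 with TSA (limma adjusted p = 1.51e-05 and 2.74e-07). Armc10, the autosomal gene from which the Armcx cluster is thought to derive, rose by 0.25 ± 0.065 and 0.60 ± 0.065 (limma adjusted p = 0.00825 and 2.44e-05). Its butyrate value turned to −0.17 on the hybridization scale and −0.10 on the poly-A scale, where the call of Gprasp1 with butyrate was lost too (0.28 on the poly-A scale, adjusted p = 0.268). Armcx4, dim on all arrays, and Armcx5 were not called with butyrate (0.00 ± 0.106 and −0.14 ± 0.094) or TSA (0.21 ± 0.106 and 0.03 ± 0.094). With butyrate, 1 gene of this list rose and 2 fell on the hybridization scale, and none rose and 1 fell on the poly-A scale. Of all 12393 genes, 932 rose and 8417 fell on the hybridization scale, and 545 rose and 3480 fell on the poly-A scale. In butyrate against TSA, Gprasp1 and Armc10 were lower, with differences of −0.50 ± 0.066 and −0.35 ± 0.065 (limma adjusted p = 0.00036 and 0.00247).

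Among 10 measured MAGE relatives, Magee1 was the one that rose with both treatments. Of the 10, 2 rose with butyrate and 1 with TSA, beside 33.6% and 26.3% of all genes. Magee1, a type II MAGE gene whose product binds dystrobrevin, averaged 7.25 ± 0.028 in butyrate DC, 7.97 ± 0.139 in TSA DC and 6.13 ± 0.129 in untreated DC (SD, n = 3 each). It was higher by 1.12 ± 0.081 with butyrate and 1.84 ± 0.081 with TSA (limma adjusted p = 9.45e-07 and 4.8e-08), and lower with butyrate than with TSA by 0.72 (−0.72 ± 0.081, limma adjusted p = 0.000133). Mageb3, dim on all arrays, rose with butyrate (0.23 ± 0.065, limma adjusted p = 0.0124) and was not called with TSA (0.03 ± 0.065), and the butyrate value turned to −0.19 on the hybridization scale and −0.12 on the poly-A scale, and its call was lost after a further quantile normalization (0.13, adjusted p = 0.112). Against TSA, Mageb3 was higher with butyrate (0.20 ± 0.065, limma adjusted p = 0.0364). That call was lost when any 1 TSA or butyrate array was left out (adjusted p up to 0.127), with the replicate block (0.0658), a trended prior (0.0785) and quantile normalization (0.166), and the value turned to −0.20 on the hybridization scale and −0.14 on the poly-A scale. The other 8 genes were not called with either treatment. They were the type I genes Magea4, Magea5 and Magea6, Mageh1, the imprinted genes Ndn and Magel2, the SMC5/6 complex gene Nsmce3 and Tro, with differences from −0.07 to 0.21 with butyrate and from −0.12 to 0.19 with TSA. Magea4, Magea5, Magea6 and Mageh1 were dim on all 9 arrays. With butyrate, 1 gene of this list rose and 7 fell on the hybridization scale, and 1 rose and none fell on the poly-A scale. Of all 12393 genes, 932 rose and 8417 fell on the hybridization scale, and 545 rose and 3480 fell on the poly-A scale.

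**Figure D4:**
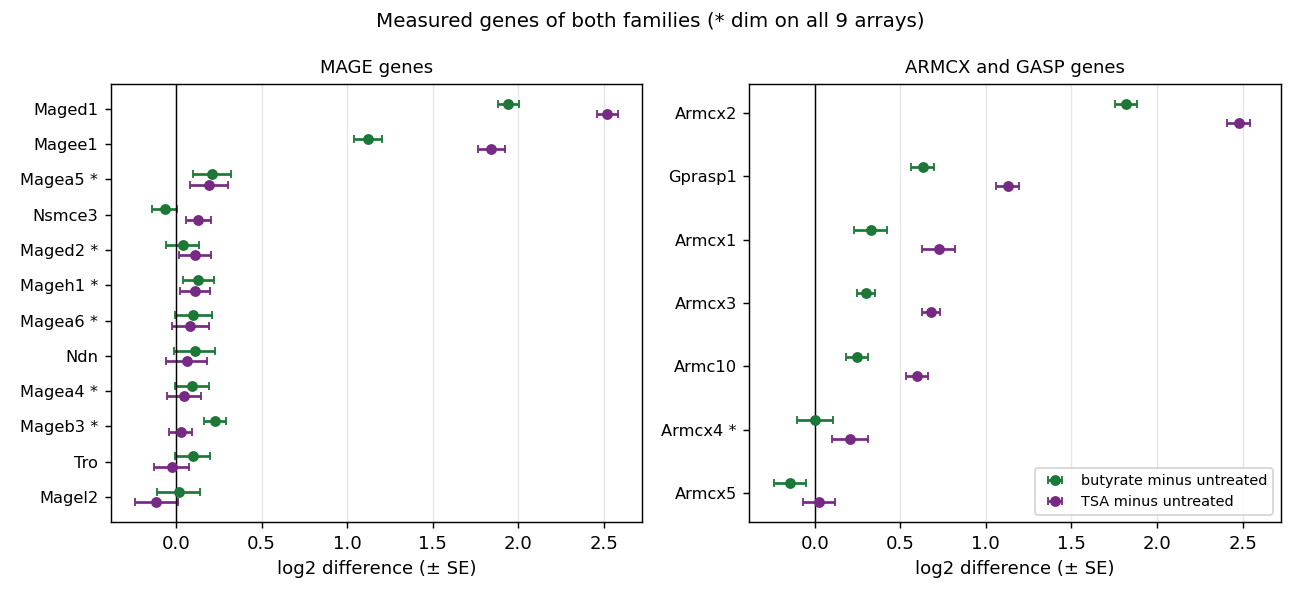
Log2 difference from untreated samples (± limma's SE) with butyrate and with TSA for the measured MAGE genes (left) and ARMCX and GASP genes (right), sorted by the TSA difference, with genes that were dim on all 9 arrays marked by an asterisk. Maged1 and Magee1 stand apart among the MAGE genes, and Armcx2 and Gprasp1 lead the other panel.

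In the reference gene order of the X chromosome, Armcx4, Armcx1, Armcx6, Armcx3 and Armcx2 follow each other with no other protein-coding gene between them. The genes of this run differed in size of change: Armcx2 was higher with TSA by 2.48, its neighbour Armcx3 by 0.68, and Nxf2, the next measured gene on the far side of Armcx2, was not called and dim (0.05 ± 0.097 with butyrate and 0.07 ± 0.097 with TSA). Around Maged1, Eif2s3x, an initiation factor subunit, was not called with butyrate (0.04 ± 0.078) and rose by 0.32 ± 0.078 with TSA (limma adjusted p = 0.00634). On its other side Gspt2, a translation termination factor, was not called with butyrate (0.08 ± 0.096) and rose by 0.35 ± 0.096 with TSA (limma adjusted p = 0.0122), a call lost without TSA replicate 3 (adjusted p = 0.0518). On the poly-A scale neither TSA call held (adjusted p = 0.349 for Eif2s3x and 0.277 for Gspt2), although the differences hardly moved (0.305 and 0.334). The TSA call of Eif2s3x was also lost with averaged probe sets (adjusted p = 0.124). Beside Maged2, Tro was not called with either treatment. Of the 30 measured genes within 5 places of any of the 5 genes, 8 rose and 5 fell with butyrate and 11 rose and 2 fell with TSA. Among all genes 33.6% rose and 24.8% fell with butyrate, and 26.3% rose and 21.0% fell with TSA. In butyrate against TSA, 12 of the 30 neighbours were lower and 2 higher, beside 20.0% and 15.9% of all genes.

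**Figure D5:**
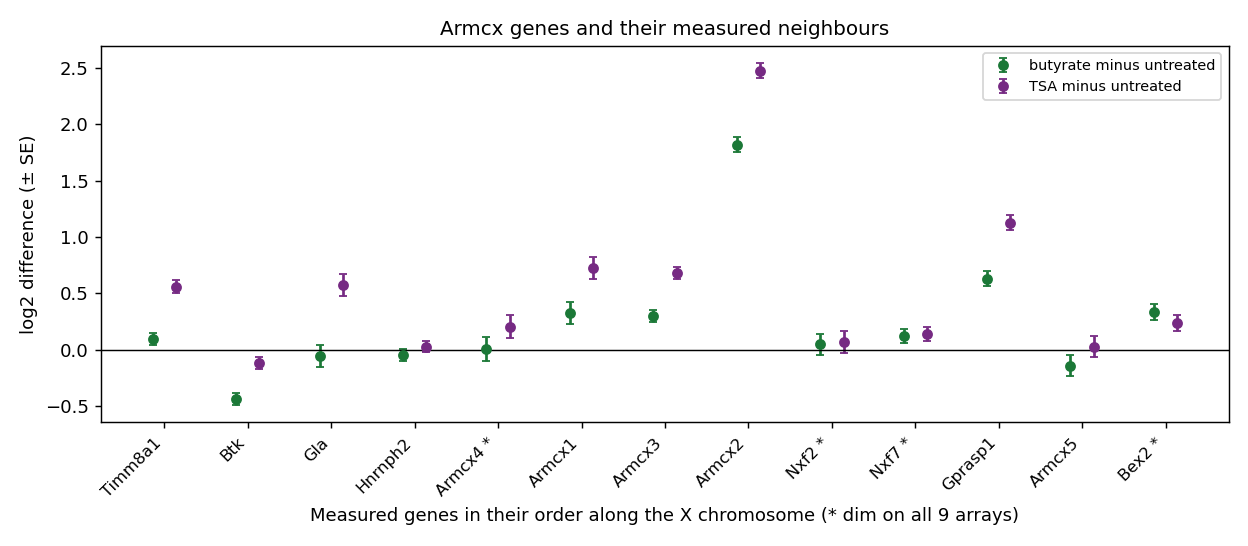
Log2 difference from untreated samples (± limma's SE) with butyrate and with TSA for the Armcx genes and the measured genes within 5 places of them, in their order along the X chromosome (spacing not to scale); an asterisk marks genes dim on all 9 arrays. Armcx2 stands highest at 1.82 and 2.48, and the genes next to this run are lower.

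Rises were about as frequent among other X-linked genes as on the other chromosomes. Of 397 other X-linked genes, 30.2% rose with butyrate and 25.9% with TSA, beside 33.7% and 26.3% of 11975 genes on other chromosomes. Lower levels with butyrate than with TSA were called for 27.7% of the other X-linked genes, against 19.7% on other chromosomes. The Bex and Tceal genes, X-linked except for Bex6 among those measured, encode small proteins that include regulators of neurotrophin signalling and transcription elongation. They rose in 6 of 8 measured cases with butyrate, Bex6 among them, with none falling. With TSA 5 rose and 1, Bex6, fell. With butyrate 4 rose on the hybridization scale and 3 on the poly-A scale, and none fell on either. Of all 12393 genes, 932 rose and 8417 fell on the hybridization scale, and 545 rose and 3480 fell on the poly-A scale. With TSA 3 of the list rose and none fell on the poly-A scale, beside 1214 and 1283 of all genes. Tceal9 rose by 1.35 ± 0.054 and 1.74 ± 0.054, Bex3, which binds the p75 receptor as Maged1 does, by 0.93 ± 0.050 and 1.14 ± 0.050, and Tceal8 by 0.83 ± 0.100 and 1.07 ± 0.100 with butyrate and TSA (limma adjusted p at most 4.23e-05). Bex4 rose by 0.62 ± 0.069 and 0.31 ± 0.069, calls lost on the poly-A scale (adjusted p = 0.291 and 0.36). Bex6, on chromosome 16, rose by 0.28 ± 0.104 with butyrate and fell by 0.47 with TSA (limma adjusted p = 0.0388 and 0.00326). The butyrate call of Bex6 was lost when untreated replicate 3, TSA replicate 2 or any 1 butyrate array was left out (adjusted p up to 0.127). Its butyrate value turned to −0.13 on the hybridization scale and −0.07 on the poly-A scale. The TSA call of Bex6 was lost on the poly-A scale (adjusted p = 0.0625). The TSA differences of Bex4 and Bex6 hardly moved on that scale, at 0.3 and −0.482.

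Sequences at the gene starts were taken from RefSeq (GRCm38.p6), where 5 of the 6 genes had an entry, Armcx3 being the exception. They are shown so that genes that were higher with both treatments on the deposited scale (Maged1, Armcx2 and Armcx1, the last of which turned with butyrate on the spike-in scales) can be set beside Maged2, which was not, and the unmeasured Armcx6. Each line gives the 120 bases before and 30 bases after an annotated start, 5′ to 3′ on the strand of the gene. Capitals mark matches, on either strand, to a set of common promoter motifs. The E-box searched was CACGTG, and its extended form was TCACGTGA. The CRE-type motif was TGACGT, and the full CRE was TGACGTCA. The palindromic NRF1 site has the letters in capitals in the Maged1 line. The GC box was GGGCGG, the TATA box was TATAAA, and the CCAAT box was searched by the letters of its name. The extended E-box contains the E-box, and the full CRE contains the CRE-type motif. Maged2 has 4 start windows, some of them overlapping, and the one shown is 1 of a pair that hold the NRF1 site.
Maged1, chrX:94541996-94542145, minus strand: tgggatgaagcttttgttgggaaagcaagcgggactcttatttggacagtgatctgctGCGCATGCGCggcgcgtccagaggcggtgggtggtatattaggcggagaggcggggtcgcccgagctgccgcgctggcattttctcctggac
Maged2, chrX:150812950-150813099, minus strand: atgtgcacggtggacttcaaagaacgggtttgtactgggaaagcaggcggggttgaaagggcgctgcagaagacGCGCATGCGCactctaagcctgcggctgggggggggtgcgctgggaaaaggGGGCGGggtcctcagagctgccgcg
Armcx1, chrX:134717818-134717967, plus strand: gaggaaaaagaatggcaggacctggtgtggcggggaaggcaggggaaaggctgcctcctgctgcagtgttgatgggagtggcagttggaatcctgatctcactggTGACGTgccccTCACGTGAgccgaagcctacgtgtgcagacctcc
Armcx6, chrX:134751390-134751539, minus strand: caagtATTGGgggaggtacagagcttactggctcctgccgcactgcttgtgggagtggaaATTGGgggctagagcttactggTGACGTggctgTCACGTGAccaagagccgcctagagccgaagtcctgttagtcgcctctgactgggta
Armcx2, chrX:134809192-134809341, minus strand: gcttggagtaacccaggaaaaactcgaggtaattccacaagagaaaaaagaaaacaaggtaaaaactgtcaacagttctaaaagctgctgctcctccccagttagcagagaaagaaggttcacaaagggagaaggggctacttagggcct

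The promoter windows, taken whole from 250 bases before to 50 after the start, fell into unlike kinds. Those of Maged1 and of the Maged2 start shown held 20 and 19 CpG dinucleotides, beside a median of 7 over 32851 windows. Such counts are not rare, since 73.5% and 71.9% of the windows held fewer. Both held the NRF1 site, which occurs in 0.971% of the windows, once in Maged1 and at 2 places in Maged2. The Maged2 windows outside the pair with this site held 8 and 9 CpG dinucleotides and no NRF1 site. The likeness to Maged1 therefore holds only for the pair from which the shown start was taken. Armcx1 and the unmeasured Armcx6 held the CRE-type motif followed by the extended E-box at the same spacing. That arrangement, with 5 bases between the motifs, was looked for after it was seen in these letters and occurs in 5 of the 32851 windows: those of Armcx1, Armcx6 and Ubap2 and a pair of windows of Tceal5, another gene of the X chromosome. The separate motifs are more common, the CRE-type motif in 7.51%, the E-box in 7.15% and its extended form in 0.974% of windows. The Armcx2 window held 4 CpG dinucleotides and none of the motifs, which says only that these letters are not in it.

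Genes whose products work with the 2 families were mixed in direction, as genes at large were. Of 21 measured genes that bind or regulate MAGE proteins, 8 rose and 5 fell with butyrate and 7 rose and 4 fell with TSA. Of all genes, 33.6% rose and 24.8% fell with butyrate, and 26.3% rose and 21.0% fell with TSA. With butyrate none of the list rose and 13 fell on the hybridization scale, beside 932 and 8417 of all 12393 genes. None rose and 6 fell on the poly-A scale, beside 545 and 3480. Pja1, a RING ubiquitin ligase that binds Maged1, rose by 0.46 ± 0.054 with butyrate and 0.94 ± 0.054 with TSA (limma adjusted p = 3.6e-05 and 2.43e-07), and Trim27, the ligase partner of other MAGE proteins, rose by 0.52 ± 0.058 and 0.62 ± 0.058 (limma adjusted p = 2.33e-05 and 7.21e-06). Trim28, a corepressor and ligase activated by MAGE proteins, rose by 0.33 ± 0.046 and 0.45 ± 0.046 (limma adjusted p = 0.000119 and 1.53e-05). The butyrate calls of Pja1 and Trim27 were lost on the hybridization scale (0.05 and 0.10, adjusted p = 0.646 and 0.283), and that of Trim28 turned to −0.08. Xiap, an inhibitor of caspases that Maged1 binds, fell by 0.82 with butyrate and by 0.61 with TSA (limma adjusted p = 1.84e-06 and 2.15e-05). Smc5 and the p53 regulator Mdm2 fell with butyrate by 0.85 and 0.70 and with TSA by 0.42 and 0.37 (limma adjusted p at most 0.000146). With TSA 2 genes of the list rose and 1 fell on the poly-A scale, beside 1214 and 1283 of all 12393 genes. The TSA calls of Smc5, Mdm2 and Trim28 were lost there (adjusted p = 0.107, 0.186 and 0.104). Their differences hardly moved, at −0.433, −0.38 and 0.436.

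Of 17 measured genes of mitochondrial transport and dynamics, 7 rose and 6 fell with butyrate and 7 rose and 3 fell with TSA. The shares over all genes were 33.6% and 24.8% with butyrate and 26.3% and 21.0% with TSA. With butyrate none of the list rose and 10 fell on the hybridization scale and none rose and 6 fell on the poly-A scale. Of all 12393 genes, 932 rose and 8417 fell on the hybridization scale, and 545 rose and 3480 fell on the poly-A scale. The largest changes were falls of genes for the division and fusion of mitochondria. Fis1, an outer membrane fission factor, fell by 1.47 with butyrate and by 1.35 with TSA (limma adjusted p = 3.83e-09 and 1.09e-08), and the fission GTPase Dnm1l by 1.07 and 0.64 (limma adjusted p = 1.87e-08 and 9.23e-07). Opa1, which fuses inner membranes, fell by 0.86 with butyrate (limma adjusted p = 3.31e-06) and was not called with TSA (−0.19 ± 0.074, limma adjusted p = 0.062). The TSA fall of Opa1 was called with the replicate block (adjusted p = 0.0253), after quantile normalization (0.0439), with averaged probe sets (−0.27, adjusted p = 0.00424), and without TSA replicate 3 (0.0287) or butyrate replicate 2 (0.046). The kinesin genes of the list that rose included Klc4, by 0.52 ± 0.060 and 0.44 ± 0.060, and Kif5c, by 0.35 ± 0.092 and 0.50 ± 0.092 (limma adjusted p at most 0.00817). The butyrate value of Kif5c turned to −0.07 on the hybridization scale, and that of Klc4 lost its call there (0.11, adjusted p = 0.277). With TSA none of the list rose and 2 fell on the poly-A scale, beside 1214 and 1283 of all 12393 genes. The TSA calls of Kif5c and Klc4 were lost there (adjusted p = 0.0596 and 0.112), with differences that hardly moved (0.486 and 0.429).

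The nearest patterns over the 9 arrays were found by the root mean square difference between gene-centred log2 profiles, with 3 genes named for each. Maged1 and Armcx2 were close to each other, at 0.122. These genes were picked among the largest rises with TSA and the measure takes in the untreated arrays, so the choice fixed part of this closeness. Pfn2, an actin-binding gene, was nearest to both, at 0.087 from Maged1 and 0.107 from Armcx2, with differences of 1.87 with butyrate and 2.60 with TSA. Fbxo2, a ubiquitin ligase subunit, came next to this pair, at 0.173 from Maged1 and 0.152 from Armcx2. Armcx3 was nearest to Top2b (0.043), Mrpl16 (0.048) and Xpc (0.049), and Armcx1 to Klhl7 (0.081), Ybx3 (0.084) and Prmt5 (0.085). The profile of Maged2, which held little besides the spread between arrays, was nearest to Rbmx (0.053), Ncs1 (0.057) and Dpys (0.060).

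Markers of other cells were read beside the rises. For comparison, 33.6% of all genes rose and 24.8% fell with butyrate, and 26.3% rose and 21.0% fell with TSA. Of 8 measured B16 melanoma markers, 3 rose and 2 fell with butyrate and 1 rose and 3 fell with TSA. Their summed linear level was 562 to 629 in butyrate samples, 626 to 668 in TSA samples and 1693 to 1897 in untreated samples, and the pigment enzyme genes Tyr, Tyrp1 and Dct were dim on all 9 arrays. Most of this fall lay in Gpnmb, a glycoprotein gene that macrophages and DC also express, with mean log2 levels of 6.56 in butyrate DC, 7.40 in TSA DC and 10.17 in untreated DC, and Mitf was the other gene that fell with butyrate, while Pmel, Sox10 and Slc45a2 rose with it. Of 10 neuron markers, 2 rose with each treatment and none fell, with sums of 277 to 292 in butyrate samples, 266 to 275 in TSA samples and 244 to 255 in untreated samples, and 6 of them, Snap25, Syt1, Rbfox3, Gap43, Nefl and Nefm, were dim on all arrays. Of 10 fibroblast and stroma markers, 5 rose and 1 fell with butyrate and none rose and 1 fell with TSA, with sums of 494 to 515, 449 to 465 and 449 to 479 in butyrate, TSA and untreated samples. Col1a1, Col3a1, Pdgfra and Lum were dim on all arrays. Of 8 macrophage and monocyte markers, none rose and 7 fell with butyrate and 1 rose and 7 fell with TSA. Of 8 neutrophil markers, 3 rose and 4 fell with butyrate and none rose and 5 fell with TSA. Of 6 plasmacytoid DC markers, 1 rose and 5 fell with butyrate and none rose and 4 fell with TSA. Of 8 T cell markers 2 fell with butyrate and 4 with TSA, and of 9 B cell markers 2 and 5 fell, with none rising in either list. Of 7 NK cell markers, 1 rose and 3 fell with butyrate and none rose and 4 fell with TSA, and the counts were the same for 5 erythroid markers. Of 8 endothelial markers, 1 rose and 4 fell with butyrate and none rose and 4 fell with TSA. Of the 11 DC markers themselves, 1 rose and 6 fell with butyrate and none rose and 6 fell with TSA. The part of such cells in the rises was not tested.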

How the data were processed

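The deposited log2 values were made by the authors with RMA, per the submitters' processing notes, and the sources used here name no program version. Names for the 22690 probe sets came from the platform annotation, where 20380 had 1 symbol, 691 several, 1555 were unnamed here and 64 were controls. Where a gene had several probe sets, the one brightest on average stood for it. A limma model (3.58.1, R 4.3.3) with a mean for each group took in all 9 arrays (lmFit, eBayes, 6 residual and 3.9 prior degrees of freedom), adjusting p-values by Benjamini-Hochberg over 12393 genes or 20380 probe sets and calling at 0.05. On simulated data for butyrate against TSA over 12393 genes, 67 genes were changed by 1 on the log2 scale, 67 by 0.5 and 66 by 0.25. Of these 98.5%, 73.1% and 19.7% were recovered, with 6 false calls among the unchanged genes. Far fewer genes changed there than the 4448 called in these data, so neither the recovery nor the false calls carry over to them. The 6 genes and all lists were chosen with earlier results of these data known. Genes outside the 6 were named by rule: every measured relative, up to 4 called genes with the largest change per list and treatment, measured X-linked neighbours within 5 places and the 3 nearest profiles. Ubap2 and Tceal5 were named after their motif was seen. Precision is limited by the number of arrays in a group, which was 3, and scan dates were not analysed here. No arrays held identical values. Alternatives were a replicate block, other scales, a trended prior, fits of only the groups compared, a filter on level, averaged probe sets and leaving out each array.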

Additional observations from a re-analysis of the deposited data

How the results depend on the processing

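The alternatives left Maged1, Armcx1, Armcx2 and Armcx3 lower with butyrate than with TSA wherever the gene was tested. With only genes above the median level 2 of them were tested, and both were called. Maged2 became called on the hybridization scale (−0.473, adjusted p = 0.000168). Genes called in butyrate against TSA numbered 4448, against 10140 (93 higher, 10047 lower) on the hybridization scale and 2890 (19 higher, 2871 lower) on the poly-A scale, and 16664 probe sets were called on the hybridization scale against 6166. With butyrate against untreated cells 9349 genes were called on the hybridization scale (932 higher, 8417 lower). On the poly-A scale 4025 genes were called with butyrate (545 higher, 3480 lower) and 2497 with TSA, against 7241 (4166 higher, 3075 lower) and 5866. The median over the measured genes in butyrate against TSA was −0.797 on the hybridization scale, −0.736 on the poly-A scale, −0.468 after quantile normalization and −0.519 with the filter on level. Against untreated cells it was −0.087 and −0.022 on the spike-in scales with butyrate, 1.06 with the filter and 0.448 with averaged probe sets, and with TSA 1.579 with the filter.

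Leaving out 1 array gave 3397 to 4470 genes called in butyrate against TSA, 6559 to 7205 with butyrate and 5331 to 5865 with TSA, 4604 to 6290 probe sets called in butyrate against TSA, and medians of −0.491 to −0.378, 0.283 to 0.396 and 0.685 to 0.819. For Maged2 the difference with butyrate then ran from −0.022 (without butyrate replicate 2) to 0.091 and that with TSA from −0.004 (without TSA replicate 1) to 0.196, and after quantile normalization the butyrate difference was −0.046. With the replicate number as a block, 4116 genes were called in butyrate against TSA, 7089 with butyrate and 5732 with TSA, and 4 of the 5 genes were still called. Deviations of same-numbered samples from their group means had r between −0.120 and 0.210, and those of differently numbered samples between −0.246 and 0.157. With 3 arrays per group these values cannot tell whether same-numbered samples shared a mouse, culture or batch.

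On the hybridization and poly-A scales, these butyrate differences from untreated cells turned negative because the scale itself lowers every butyrate value: Armcx1 (−0.087, −0.022), Armcx3 (−0.115, −0.05), Maged2 (−0.376, −0.311), Armc10 (−0.169, −0.104), Mageb3 (−0.187, −0.122), Bex6 (−0.133, −0.068), Kif5c (−0.068, −0.003), Trim28 (−0.084, −0.019), the Maged2 neighbours Fgd1 (−0.158, −0.093) and Alas2 (−0.196, −0.131), Klhl7 (−0.16, −0.095), Mrpl16 (−0.11, −0.045), Prmt5 (−0.101, −0.036), Top2b (−0.112, −0.047), Ybx3 (−0.073, −0.008) and, on the hybridization scale, Xpc (−0.045). In butyrate against TSA the same held for Bex4 (−0.092, −0.031), Mageb3 (−0.2, −0.139) and, on the hybridization scale, Alas2 (−0.005). Among other named genes, besides these turned values, 36 calls were lost with no change of sign and 65 were gained over the alternatives that kept all arrays, and 30 were lost and 12 gained when an array was left out. Each gene is read here by its brightest probe set, and the second probe set of Armcx3 stayed above 0 with butyrate on both spike-in scales. Dim probe sets, Maged2 among them, limit what low values can show.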
